A study of Bos taurus with 9 samples.

Results

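Of 46982 acetylated regions on chromosomes 1 to 29 of cattle rumen tissue, 370 switched both histone acetylations together with butyrate. A region counted as acetylated where a peak of H3K9ac (acetylated lysine 9 of histone H3) or H3K27ac (acetylated lysine 27 of histone H3) had been called in either condition, and peaks that overlapped by 1 bp or more were merged. In 183 regions peaks of both marks were called in the control lists and none in the butyrate lists (both lost), and in 187 regions peaks of both marks were called in the butyrate lists and none in the control lists (both gained). These make 0.39% and 0.398% of all merged regions, or 0.788% together. The members were thus chosen from the same 4 peak lists that they describe, and "lost" and "gained" name patterns of peak calls, not tested changes.

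The control group was rumen tissue of Holstein cattle collected before butyrate treatment, and the butyrate group was tissue collected after 24 h of it. Per the study's methods, butyrate was infused into the rumen and the tissue came from biopsies. The labels used here give no age or number of animals. Each of 4 antibodies, against H3K9ac, H3K27ac, RNA polymerase II (RNA pol II) and trimethylated lysine 9 of histone H3 (H3K9me3), had 1 library per condition, and all shared 1 input library. There were no replicates, so no difference has a replicate check, no test between conditions was run, and the Wilson 95% intervals given below cover counting error of regions only. Both control acetylation libraries were run on lane 1 and both butyrate ones on lane 3, so lane and condition cannot be told apart for these marks. The same holds for H3K9me3, with control on lane 3 and butyrate on lane 4, while both RNA pol II libraries were on lane 3. The rumen, the tissue named by the labels, was not checked against marker genes, because no gene positions of the assembly of the lists (UMD3.1) were used. Whether the regions lie in genes was not analysed here.

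H3K27ac marks active enhancers and promoters, and H3K9ac is concentrated at active promoters, where both marks are commonly found on the same nucleosomes. Acetyl groups are written by acetyltransferases and removed by histone deacetylases. Butyrate, a short-chain fatty acid that rumen microbes make from plant fibre and that the rumen wall takes up and metabolises, inhibits several of these deacetylases. A region that loses or gains both marks at once is therefore a natural place to look for a switch of a whole element, in contrast to a shift of a single lysine.

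The first question was how often both marks switched in the same direction. On the level of single marks, 65% of the 3944 regions with control H3K9ac had no H3K9ac after butyrate, and 66.4% of the 4105 regions with butyrate H3K9ac had had none in control. For H3K27ac, 41% of 35844 control regions and 33% of 31518 butyrate regions were found in that condition alone. Set beside these, regions in which both marks went the same way were few, and they were about as frequent as regions in which the marks went opposite ways. Most acetylated regions had no H3K9ac peak in either condition, so they could not enter any of these patterns. The opposite patterns were H3K9ac lost with H3K27ac gained, in 152 regions, and H3K9ac gained with H3K27ac lost, in 227 regions. Of the 749 regions in which both marks were each called in 1 condition only, 49.4% (95% interval 45.8 to 53.0) switched in the same direction. Most H3K9ac switches took place inside H3K27ac regions called in both conditions, 1883 with H3K9ac lost and 1924 with H3K9ac gained.

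**Figure D1:**
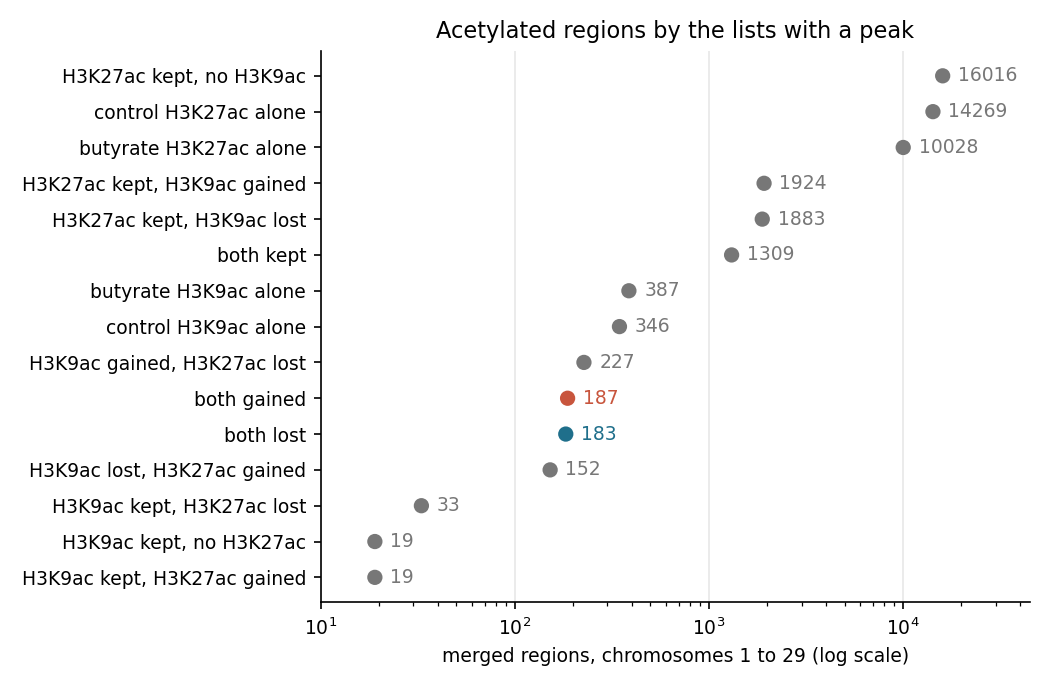
Number of merged regions on chromosomes 1 to 29 (horizontal log axis) for each of the 15 combinations of control and butyrate H3K9ac and H3K27ac peaks. Both lost (183, blue) and both gained (187, red) lie between the 2 patterns in which the marks switched in opposite directions (152 and 227).

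Losses and gains were balanced. The log2 ratio of both-gained to both-lost regions was 0.03 (counting interval -0.26 to 0.33). The ratio for H3K9ac that switched inside kept H3K27ac was also 0.03 (-0.06 to 0.12). H3K27ac regions without any H3K9ac, in contrast, were more often called in control, with 14269 control and 10028 butyrate regions and a log2 ratio of -0.51 (-0.55 to -0.47). The interval of the members did not include this last value in the regions as defined. Without members within 1 kb of acetylation of the other condition, the ratio of the members was -0.28 (-0.67 to 0.12), of the other sign and with an interval that included both 0 and the value of H3K27ac without H3K9ac.

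How often loss of H3K9ac came with loss of H3K27ac was then counted among regions that carried both marks in control. These shares come from the same 4 lists as the rule, with the members as their numerators, and are a description only. Of 2066 such regions without H3K9ac after butyrate, 8.86% (7.71 to 10.2) had also no H3K27ac, and these are the 183 both-lost regions. Where H3K9ac was kept, 2.46% (1.76 to 3.43) of 1342 regions had no H3K27ac after butyrate. For gains the shares were 8.86% (7.72 to 10.1) of 2111 regions with new H3K9ac and 1.43% (0.918 to 2.22) of 1328 regions with H3K9ac in both conditions. H3K27ac regions with no H3K9ac in the condition concerned were far more often found in that condition alone, 44.7% (44.2 to 45.2) of 32436 in control and 36.3% (35.7 to 36.8) of 28079 after butyrate.

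The same was read from the side of H3K9ac. Among control regions with both marks, 84.7% (79.3 to 88.9) of the 216 that lost H3K27ac had lost H3K9ac, against 59.0% (57.3 to 60.7) of the 3192 that kept it. Among butyrate regions with both marks, 90.8% (86.0 to 94.0) of the 206 with new H3K27ac had new H3K9ac, against 59.5% (57.8 to 61.2) of 3233 with H3K27ac in both conditions. H3K9ac peaks with no H3K27ac in their own condition were called in that condition alone in 92.9% (90.4 to 94.8) of 536 control regions and 92.2% (89.9 to 94.0) of 666 butyrate regions. By count, most switching H3K9ac peaks lay in regions with H3K27ac in both conditions.

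These shares fell as H3K27ac peaks became wider. With control H3K27ac peaks of up to 300 bp, H3K27ac was lost in 21.9% (18.3 to 26.0) of regions that lost H3K9ac and in 9.89% (5.29 to 17.7) of those that kept it. With peaks above 300 to 500 bp these shares were 8.69% (6.92 to 10.9) and 4.64% (2.95 to 7.21), and with peaks wider than 500 bp they were 2.05% (1.28 to 3.26) and 0.695% (0.319 to 1.51). The share was the higher one with H3K9ac lost in each class. For gains the shares were 21.3% (18.0 to 25.1) against 7.07% (3.47 to 13.9), 8.90% (7.11 to 11.1) against 2.49% (1.36 to 4.52), and 0.991% (0.503 to 1.94) against 0.242% (0.0663 to 0.877). H3K27ac peaks of up to 300 bp without H3K9ac were found in 1 condition only in 60.9% (60.2 to 61.6) of control and 50.4% (49.6 to 51.2) of butyrate regions. Among these narrow peaks, H3K27ac accompanied by H3K9ac was thus less often lost or gained than H3K27ac by itself. The classes went by the H3K27ac peak, but loss and gain were scored over the whole merged region. An H3K9ac peak can extend that region and so bring in H3K27ac of the other condition, which was not adjusted for.

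**Figure D2:**
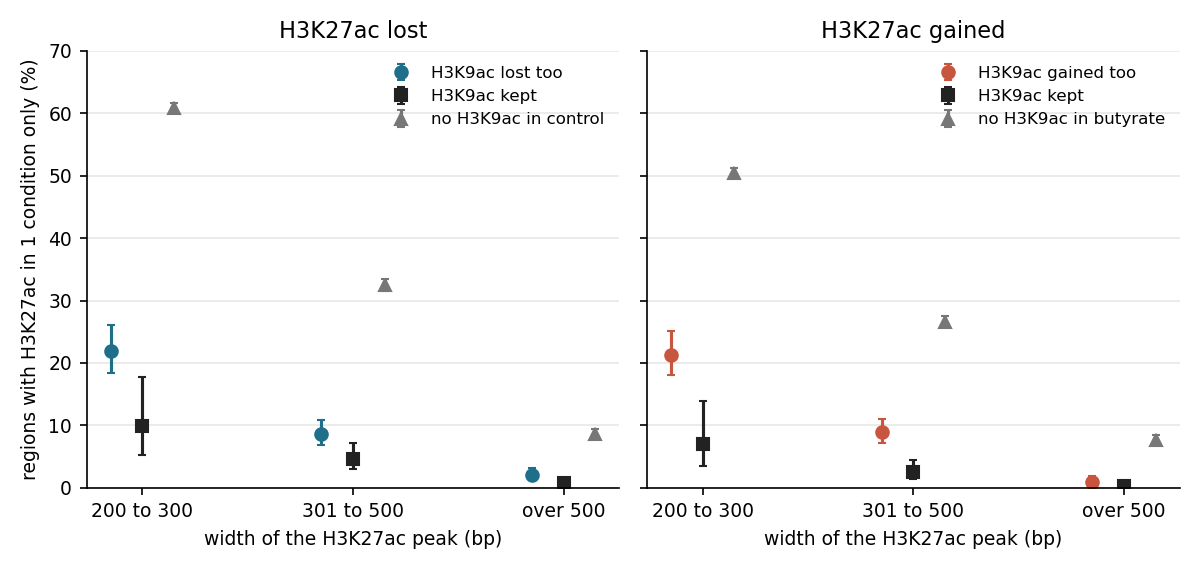
Share of regions with H3K27ac in 1 condition only (vertical axis, %, with Wilson 95% intervals) by the width of the H3K27ac peak, for control regions (left, lost) and butyrate regions (right, gained). In the narrowest class the shares were 21.9% and 21.3% where H3K9ac switched too, 9.89% and 7.07% where it was kept, and 60.9% and 50.4% without H3K9ac.

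The members themselves were narrow. Both-lost regions were 211 to 906 bp wide with a median of 339 bp, and both-gained regions 205 to 758 bp with a median of 330 bp. Regions in which both marks were kept had a median of 719 bp. The rule itself bears on these widths. Members join peaks of 2 lists, whereas kept regions join peaks of all 4. A wide region also has more room to touch a peak of the other condition, which would exclude it from the members. How much of the difference in width came from the rule was not tested. H3K27ac peaks of the members had median widths of 287 bp (lost) and 289 bp (gained), slightly above the 242 and 247 bp of H3K27ac peaks that switched without H3K9ac, and about as wide as those in the regions of opposite direction (281.5 and 309.5 bp). In regions with both marks kept the H3K27ac peaks had medians of 564 bp in control and 554 bp after butyrate. H3K9ac peaks differed less, with medians of 231 and 235 bp in members and 272 bp in both lists of kept regions. Wide H3K27ac peaks were rare among the members, with 17 of 183 lost (9.29%, 5.88 to 14.4) and 8 of 187 gained (4.28%, 2.18 to 8.21) wider than 500 bp.

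**Figure D3:**
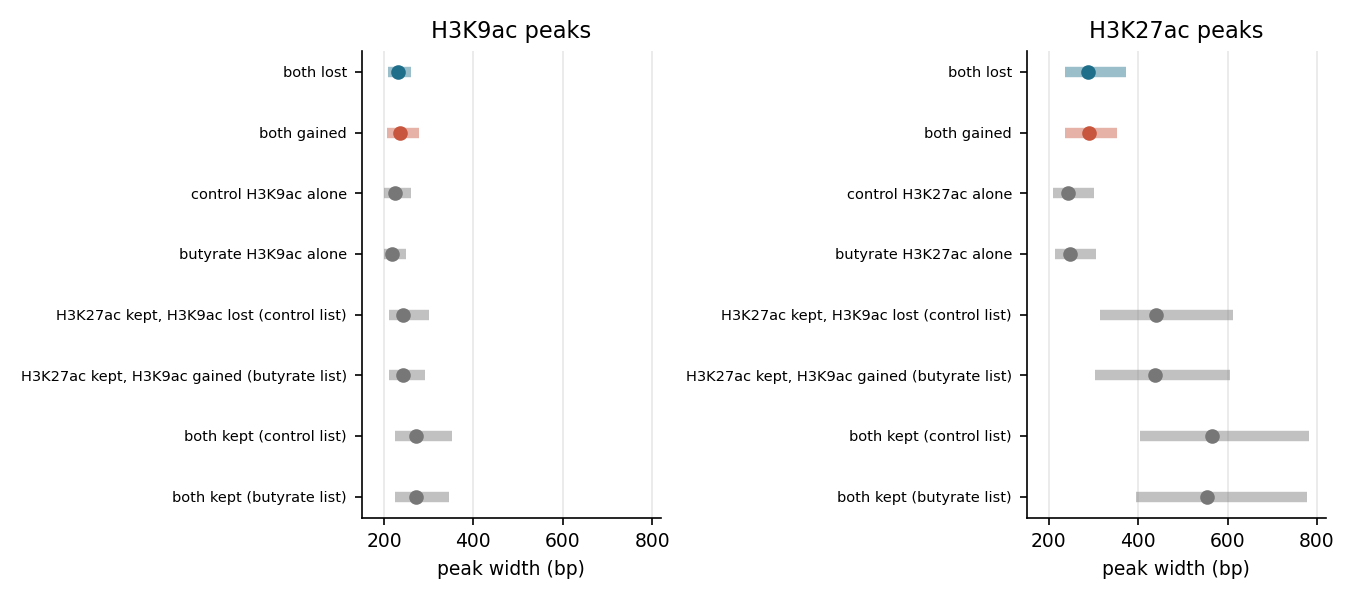
Widths of H3K9ac (left) and H3K27ac (right) peaks in bp, with the median (point) and the quartiles (bar). H3K27ac peaks of the both-lost and both-gained regions (medians 287 and 289 bp) lie near those that switched without H3K9ac and below those of regions kept in both conditions (564 and 554 bp).

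Inside the members both marks lay on nearly the same stretch. The rule itself required their peaks to overlap, and these measures were not taken in other regions. The H3K9ac peak was covered whole by the H3K27ac peak in 72 lost regions (39.3%, 32.6 to 46.6) and 72 gained regions (38.5%, 31.8 to 45.6), and the reverse held in 13 and 17 regions. The median overlap was 206 bp in lost and 204 bp in gained regions, or 97.6% and 97.9% of the shorter peak. The centres of both peaks were a median of 54.5 bp apart in lost regions and 46.5 bp in gained ones, less than the width of a nucleosome with its linker. All but 1 member held exactly 2 peaks, and the exception was a both-lost region with 3.

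A few members sat at the edge of the rule. The smallest overlaps of both marks were 15, 17 and 48 bp among lost regions (on chromosomes 17, 2 and 25) and 3, 19 and 29 bp among gained regions (5, 5 and 16). Just outside, 35 control H3K9ac peaks and 23 butyrate H3K9ac peaks had no H3K27ac contact but lay within 500 bp of an H3K27ac region of their own condition that had no other peak, the nearest 3 and 6 bp away. The nearest acetylation peaks of the other condition were 20, 22 and 32 bp from a lost region and 4, 37 and 40 bp from a gained one. On the other side of that edge, 8 of 1883 regions with H3K9ac lost and H3K27ac kept, and 3 of 1924 with H3K9ac gained, shared at most 50 bp with the H3K27ac peak of the other condition, the smallest contact being 9 and 1 bp.

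Many members lay beside acetylation that was called in the other condition. Such a peak was within 1 kb of 68 lost regions (37.2%, 30.5 to 44.4) and of 92 gained regions (49.2%, 42.1 to 56.3), and within 10 kb of 129 (70.5%, 63.5 to 76.6) and 149 (79.7%, 73.3 to 84.8). H3K27ac regions that switched without H3K9ac had nearly the same shares within 1 kb, 36.8% (36.0 to 37.6) of control-only and 44.6% (43.6 to 45.6) of butyrate-only regions. The median distance to the nearest acetylation of the other condition was 1985 bp from lost and 1304 bp from gained regions, and to the nearest H3K9ac peak of the other condition 58702 and 50355 bp. What lay nearby in the other condition was therefore mostly H3K27ac, whose lists were also far longer. On chromosomes 1 to 29 they held 36963 control and 32763 butyrate peaks, against 4075 and 4255 for H3K9ac. These distances were not compared with those of other regions. A region with both marks kept was within 10 kb of 22 lost (12.0%, 8.07 to 17.5) and 20 gained members (10.7%, 7.03 to 15.9), compared with 7.36% (6.94 to 7.80) and 7.98% (7.46 to 8.52) of H3K27ac regions that switched without H3K9ac in control and after butyrate. It was also within 10 kb of 10.6% (7.21 to 15.2) of regions with H3K9ac gained and H3K27ac lost and of 7.89% (4.57 to 13.3) with H3K9ac lost and H3K27ac gained, with intervals that overlapped those of both member groups.

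The deposited lists are not in order of position, and what their order stands for is not stated. Counted as the percent of the list that precedes and includes a peak, H3K27ac peaks of lost and gained members had median places of 57.8% and 55.6%. Those of kept regions stood at 14.4% and 15.9%, and those that switched without H3K9ac at 62.6% and 60.0%. H3K9ac peaks of members (medians 49.9% and 53.4%) stood close to those of kept regions (48.3% and 45.3%). The place in the list thus separated members from kept regions for H3K27ac far more than for H3K9ac.

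Among the widest members the H3K27ac peak made up most of the region. The widest both-lost region lay at chromosome 19, 19910892 to 19911797 (906 bp). A single H3K27ac peak spanned it and held a H3K9ac peak of 244 bp, and the nearest butyrate H3K27ac peak was 485 bp away. The next were chromosome 19, 56380134 to 56380906 (773 bp), with an overlap of both marks of 114 bp, and chromosome 20, 19702413 to 19703116 (704 bp), which was 77514 bp from any butyrate acetylation. The other 7 of the 10 widest lost regions were 578 to 683 bp wide, and 3 of the 10 were on chromosome 19.

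The widest both-gained region lay at chromosome 14, 71554919 to 71555676 (758 bp), with a H3K9ac peak of 224 bp inside the H3K27ac peak. It was followed by chromosome 13, 60769340 to 60770090 (751 bp), in which the marks lay side by side with 93 bp in common, and by chromosome 10, 51622754 to 51623451 (698 bp), which was 23885 bp from any control acetylation. The other 7 were 567 to 692 bp wide. In 5 of the 10 the H3K9ac peak lay wholly inside the H3K27ac peak, as it did in 7 of the 10 widest lost regions.

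The members were spread over the genome. Lost regions were found on 28 and gained regions on all 29 chromosomes, at medians of 6.48 and 5.83 per 100 Mb. Chromosome 19 had the most gained regions per length (23.4 per 100 Mb, 15 regions) and chromosome 23 the most lost (19.1 per 100 Mb, 10 regions). Members of both directions made up 0.955% of the 2826 acetylated regions of chromosome 19 and 1.04% of the 1633 of chromosome 23. Over chromosomes 1 to 29 they made up 0.788%. As a share of a chromosome's acetylated regions the members ranged from 0.356% on chromosome 6 to 1.24% on chromosome 26.

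On 2 of the 29 chromosomes examined the interval of the gained share left out the overall 50.5%. Chromosome 2 had 18 gained and 5 lost regions (78.3% gained, 58.1 to 90.3), and chromosome 14 had 3 gained and 11 lost (21.4%, 7.57 to 47.6). With 29 intervals at this level, some are expected to miss by counting error alone. On chromosome 2 other switches were not shifted in this way, since 48.3% (41.0 to 55.6) of H3K9ac switches inside kept H3K27ac and 40.6% (37.8 to 43.6) of H3K27ac switches without H3K9ac were gains. On chromosome 14 these shares were 39.4% (30.3 to 49.2) and 40.1% (36.4 to 44.0), beside 50.5% and 41.3% over chromosomes 1 to 29.

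**Figure D4:**
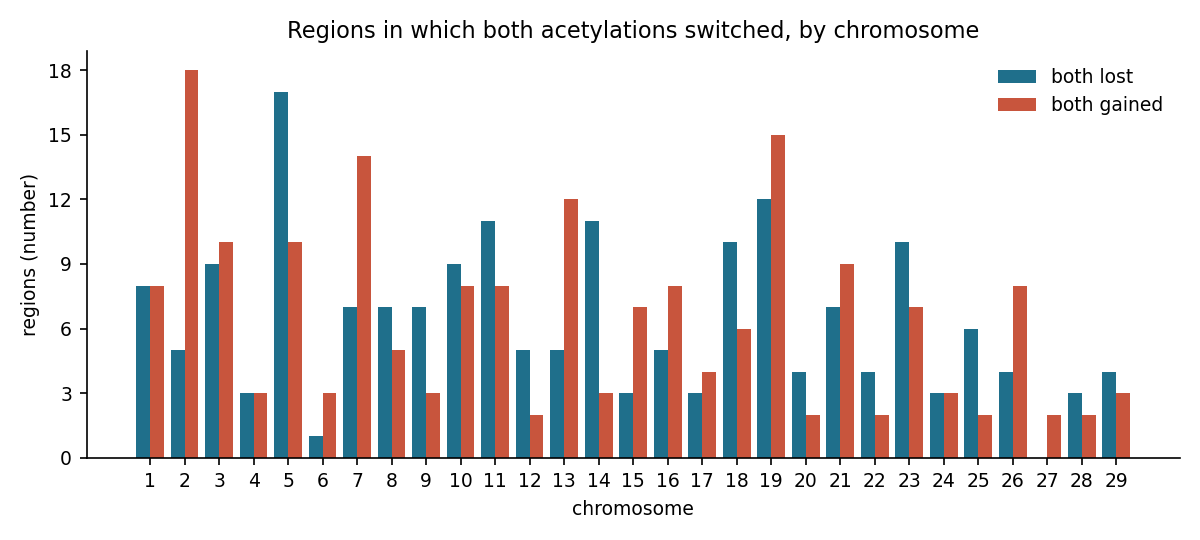
Number of both-lost (blue) and both-gained (red) regions on each of chromosomes 1 to 29. Chromosome 2 held 5 lost and 18 gained, chromosome 14 held 11 and 3, and chromosome 27 held 0 and 2.

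Most pairs of neighbouring members at most 100 kb apart had the same direction. Of 25 pairs of neighbouring members at most 100 kb apart, 18 had the same direction (72%, 52.4 to 85.7), 10 of them both lost and 8 both gained, whereas 47 of 90 pairs within 1 Mb did (52.2%, 42.0 to 62.2). Within 10 kb it was 9 of 11 pairs (81.8%, 52.3 to 94.9). Some pairs share a member, so the pairs are not independent and these intervals are too narrow. The pairs were not recounted with peaks at most 500 bp apart merged. The closest was a pair of lost regions on chromosome 5, at 28145557 to 28145892 and 28145949 to 28146473, with 56 bp between them. Opposite neighbours also occurred, the nearest on chromosome 2, where a lost region at 121759429 to 121759726 was followed by a gained one at 121760297 to 121760592, a gap of 570 bp.

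Few windows of 1 Mb held more than 1 member of the same direction. The window with most gained regions was chromosome 7, 23000001 to 24000000, with 4 gained and 0 lost members among 63 acetylated regions, followed by chromosome 19, 43000001 to 44000000, with 3 gained and 1 lost among 111, and 15 windows tied at 2 gained regions. No window held more than 2 lost regions, and 17 windows tied at that number. The first of the tied windows in genome order were chromosome 2, 19000001 to 20000000, for gained regions, and chromosome 3, 33000001 to 34000000, for lost regions. Of the 167 windows with a gained member 150 held just 1 gained member, and of the 166 with a lost member 149 held just 1 lost member. How many windows held members of both directions was not counted. In the chromosome 7 window the other switches did not lean the same way throughout, with 6 H3K9ac gains and 1 loss inside kept H3K27ac, but 12 gains and 17 losses of H3K27ac without H3K9ac.

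The flanks of 50 kb on each side were examined for the same lean. Around lost members 59.3% (56.0 to 62.6) of 831 switching H3K27ac regions without H3K9ac were control-only, and around gained members 56.1% (52.7 to 59.5) of 825, a difference of 3.20 points (-1.55 to 7.94) beside 58.7% over chromosomes 1 to 29. For H3K9ac switching inside kept H3K27ac, 53.2% (44.5 to 61.7) of 126 regions around lost and 42.9% (34.6 to 51.6) of 126 around gained members were control-only, a difference of 10.3 points (-1.99 to 22.2). Both differences pointed to the direction of the member, and both intervals included 0. With flanks of 10 kb the H3K9ac difference was -4.69 points (-23.8 to 15.2).

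RNA pol II and H3K9me3 were not used to choose the members. RNA pol II is the enzyme that transcribes protein-coding genes, and its peaks are found chiefly at active promoters. A control RNA pol II peak overlapped 3 of 183 lost regions (1.64%, 0.559 to 4.71) and 1 of 187 gained regions (0.535%, 0.0945 to 2.97), beside 0.602% of all merged regions. A butyrate RNA pol II peak overlapped 4 lost regions (2.19%, 0.853 to 5.48) and 7 gained regions (3.74%, 1.82 to 7.52), beside 1.03% of all. The difference between gained and lost regions was -1.10 points (-4.20 to 1.56) for control and 1.56 points (-2.26 to 5.57) for butyrate RNA pol II, so a difference in either list was not detectable with these numbers of regions.

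Counting peaks up to 500 bp away, butyrate RNA pol II was found at 4 lost (2.19%, 0.853 to 5.48) and 11 gained regions (5.88%, 3.32 to 10.2), beside 1.53% of all merged regions, 7.33% of those with both marks kept, and 4.30% and 3.43% of those with H3K9ac lost and gained inside kept H3K27ac. At the same distance, control RNA pol II was found at 3 lost (1.64%, 0.559 to 4.71) and 2 gained regions (1.07%, 0.294 to 3.82), beside 0.881% of all merged regions. By direct overlap, 6 gained regions had a butyrate RNA pol II peak only, 1 had peaks in both lists and 0 had a control peak only. In lost regions 2 had a control peak only, 3 a butyrate peak only and 1 both. The butyrate RNA pol II list was the longer one, with 1242 peaks on chromosomes 1 to 29 against 673 in control. It overlapped 484 of all 46982 merged regions, and the control list 283. An excess of butyrate over control RNA pol II was thus not particular to the gained regions. Members were under butyrate RNA pol II more often than H3K27ac regions that switched without H3K9ac, of which 0.273% (0.200 to 0.373) of the control-only regions and 0.359% (0.259 to 0.497) of the butyrate-only regions were under butyrate RNA pol II. Their intervals overlapped those of the regions in which H3K9ac switched inside kept H3K27ac (3.51%, 2.76 to 4.43, for lost and 2.75%, 2.11 to 3.59, for gained H3K9ac), while regions with both marks kept had a share of 6.65% (5.42 to 8.13). Other regions with H3K9ac had similar shares, 2.64% (1.22 to 5.65) with H3K9ac gained and H3K27ac lost, 2.31% (1.18 to 4.50) with control-only H3K9ac and no H3K27ac, and 12 of 387 (interval 1.78 to 5.34%) with butyrate-only H3K9ac and no H3K27ac, so these shares were not particular to the members. The regions with H3K9ac lost and H3K27ac gained had no butyrate RNA pol II peak (0 of 152, interval up to 2.46%).

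**Figure D5:**
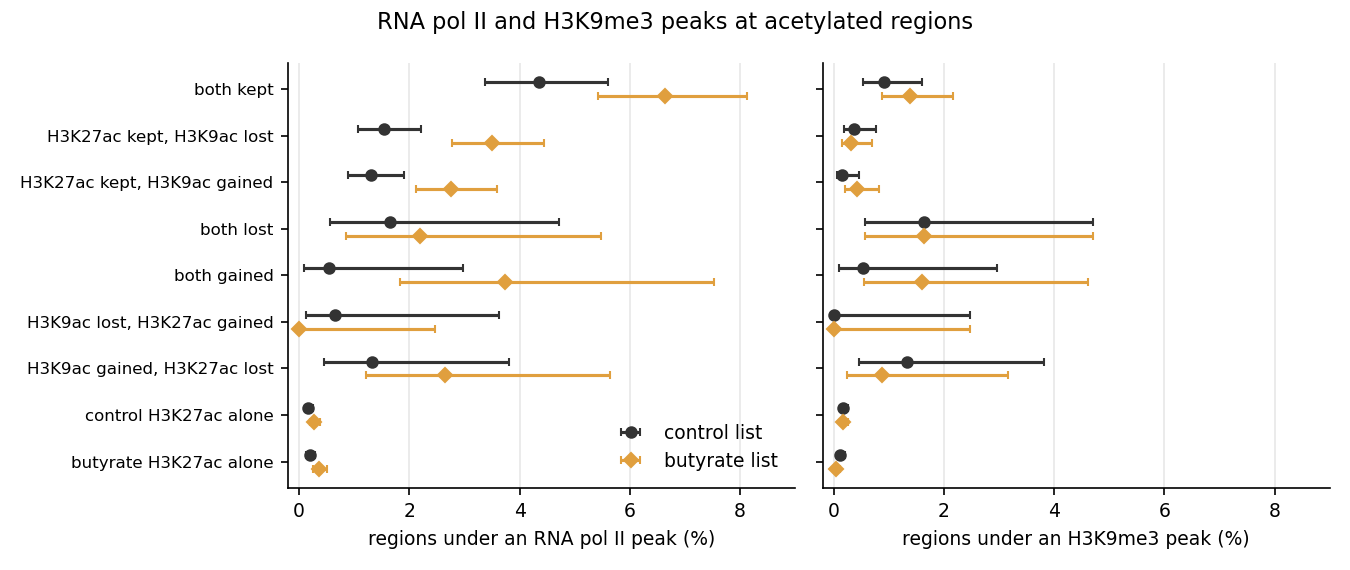
Share of regions under an RNA pol II peak (left) and an H3K9me3 peak (right), in %, with Wilson 95% intervals, for control and butyrate lists. The butyrate RNA pol II shares were 2.19% of both-lost, 3.74% of both-gained, 6.65% of both-kept and 0.273% and 0.359% of control-only and butyrate-only H3K27ac regions.

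The gained regions with RNA pol II were on 5 chromosomes. Among them, 2 lay close together on chromosome 19, at 43918748 to 43919039 and 43926594 to 43927136, both under butyrate RNA pol II only, with control RNA pol II peaks 5133 and 2130 bp away, and another gained region lay between them at 43925319 to 43925576. On chromosome 2 they were 37619790 to 37620026 and 54094341 to 54094696, with the nearest control RNA pol II peak 756207 and 8390969 bp away. On chromosome 7 the region was 23232669 to 23233130, part of the window with 4 gained members, and on chromosome 10 it was 47115433 to 47115917, next to another gained region 431 bp away.

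The remaining gained region with RNA pol II, at chromosome 13, 14640467 to 14640875, stood apart from the rest. It was under RNA pol II and H3K9me3 peaks in both conditions, and the nearest acetylated region of any list was 586826 bp away, the largest such distance of all members. Its marks were thus called after butyrate in a stretch without other acetylation peaks but with RNA pol II and H3K9me3 called before and after.

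Of the lost regions, chromosome 5, 30928413 to 30928815, and chromosome 8, 71201481 to 71201734, were under control RNA pol II only, so that all 3 lists lost their peak. Chromosome 8, 1016830 to 1017339, was under RNA pol II in both conditions. Chromosome 3, 33628319 to 33628707, chromosome 5, 45355485 to 45355721, and chromosome 7, 44521457 to 44521701, were under butyrate RNA pol II only, with acetylation and RNA pol II called in opposite conditions. Of these 3, the regions on chromosomes 5 and 7 were also under H3K9me3.

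H3K9me3, a mark of silent heterochromatin and repeats, is not commonly found with acetylated histones. Its control peaks overlapped 3 lost regions (1.64%, 0.559 to 4.71) and 1 gained region (0.535%, 0.0945 to 2.97), beside 0.215% of all merged regions. Its butyrate peaks overlapped 3 lost (1.64%, 0.559 to 4.71) and 3 gained regions (1.60%, 0.547 to 4.61), beside 0.221% of all. In H3K9ac regions without H3K27ac the control H3K9me3 shares were 2.02% (0.983 to 4.12) for control-only and 3.88% (2.36 to 6.30) for butyrate-only H3K9ac. The butyrate H3K9me3 shares there were 1.73% and 3.1%, and 1.38% of regions with both marks kept. They were lower, 0.319% and 0.416%, where H3K9ac was lost and gained inside kept H3K27ac. The opposite-direction patterns had 2 of 227 and 0 of 152 regions. The members' shares were thus not particular to them. The both-lost regions under H3K9me3 were chromosome 5, 45355485 to 45355721 (control only), chromosome 5, 109099336 to 109099642, and chromosome 7, 44521457 to 44521701 (both conditions each), and chromosome 19, 33903006 to 33903456 (butyrate only). The both-gained ones were chromosome 13, 14640467 to 14640875 (both conditions), chromosome 19, 43918748 to 43919039, and chromosome 7, 3937385 to 3937807 (butyrate only each). Of the 13 members under RNA pol II 4 were also under H3K9me3, and the part of such places in the RNA pol II counts was not tested beyond the count without them, which left 2 lost and 5 gained regions under butyrate RNA pol II.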

How the data were processed

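ChIP-seq peak lists of rumen tissue were used, 1 per antibody and condition (8 lists). Per the study's methods, the authors removed reads that failed the Illumina filter, aligned with BWA to UMD3.1 (as named in the submitters' processing notes, with Trim Galore 0.4.1), kept unique alignments and called peaks per library with MACS2 at default settings against the input. The series text calls the reads single-end and the methods paired-end. The deposited lists hold 3 columns, the chromosome and the start and end positions in bp, without score, fold, p-value or depth. Read numbers were not used. In the study's sequencing summary the deeper library was control for H3K9ac and butyrate for H3K27ac. A processed file of the input was not analysed here.

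Starts and ends were read as 1-based, inclusive positions. The 4 acetylation lists were merged on chromosomes 1 to 29 and each region was classed by the lists with a peak, in Python 3.11.15 with pandas 2.3.3, tested on simulated lists. Spans were taken as the last peak position. Shares have Wilson intervals (SciPy 1.17.1), differences Newcombe intervals and ratios counting intervals, all at 95%. Neighbouring regions are not independent, so these intervals are too narrow. Named were the 10 widest regions per group, all under RNA pol II or H3K9me3, the 3 fullest windows of 1 Mb (ties in genome order, of which the first is named) and the nearest to the limits of the rule. The closest pairs of neighbours and chromosomes 2 and 14 were picked after their values were seen. The members and settings were chosen with earlier results of these data known. A gene table of another assembly (ARS-UCD2.0) was not used for positions. No sequence is printed, since no genome of the build was used.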

Additional observations from a re-analysis of the deposited data

Results flagged for a closer look

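Chromosome X lies outside the regions described above. Among its 795 acetylated regions 12 gained both marks (1.51%, 95% interval 0.866 to 2.62) and 6 lost both (0.755%, 0.346 to 1.64). The gained share was above the 0.398% of chromosomes 1 to 29, while the interval of the lost share included their 0.39%. Neither difference was tested. Of the 18 regions on X, 15 were under an RNA pol II peak and 15 under an H3K9me3 peak in either condition (83.3%, 60.8 to 94.2, for each), beside 13 (3.51%, 2.06 to 5.92) and 7 (1.89%, 0.919 to 3.85) of the 370 regions on chromosomes 1 to 29. On X these were the same 15 regions, each with peaks of both kinds, and the others had neither. Peaks of both kinds were frequent on X in general, at 9.43% (7.59 to 11.7) and 12.2% (10.1 to 14.7) of all its acetylated regions, and at 32.9% (23.0 to 44.5) and 38.6% (28.0 to 50.3) of its 70 other regions with H3K9ac. H3K9ac had 37 control and 72 butyrate peaks on X.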

How the results depend on the processing

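No paired analysis was possible because no group had more than 1 library. Of 83 values under another setting, 68 stayed within the counting interval of the reported value or within 1.5 times a count, and 15 did not. Among the 68, 4 could not move. They left out members of the minimum peak width of 200 bp, and every member was wider. The values for RNA pol II and H3K9me3 rested on few regions with wide intervals, so staying within them says little about stability. Among the 15 were 3 of 8 values with peaks at most 500 bp apart merged and 3 of 8 with narrow peaks removed. They also included 4 of 8 with the later 50% of each list dropped and all 3 for regions over 1 kb from acetylation of the other condition. Numbers of lost and gained regions were 144 to 195 and 128 to 199 over the settings that rebuilt the regions. Left with regions over 1 kb from acetylation of the other condition, a setting chosen after the data were seen, there were 115 lost and 95 gained, and the log2 ratio of gained to lost was -0.28. It was -0.27 with peaks at most 500 bp apart merged, and the intervals of both (-0.67 to 0.12 and -0.61 to 0.06) included 0 and also the -0.51 of H3K27ac without H3K9ac, as did that with narrow peaks removed (-0.20, -0.54 to 0.14). With that merging, H3K27ac was gained in 6.64% of regions that gained H3K9ac and in 0.896% of those that kept it. With peaks below their list's median width removed, H3K27ac was lost in 13.4% of regions with H3K9ac lost and 3.79% with H3K9ac kept, and gained in 12.1% with H3K9ac gained. When the later 50% of every list was dropped, by its place in the file, also chosen after the data were seen, losses were 16.1% and 7.59% and gains 14.7% and 4.36%. The order of these shares held in each of these settings. With flanks of 10 kb, 41.5% of the H3K9ac switches around lost regions were control-only. Without regions under H3K9me3, 0 of 184 gained regions were under control RNA pol II, which allows up to 1.63%. The causes were not tested. The lists hold no score, so a stricter enrichment threshold was not tried, and the small number of RNA pol II peaks limits every count of them.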
